A study of Homo sapiens with 19 samples.

Results

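Cholesterol synthesis, uptake and storage genes, together with the genes of the sterol regulatory element-binding proteins (SREBPs), were followed in HepG2 cells, an established human liver cancer line, after siRNAs against YAP1, WWTR1 (the gene of TAZ) or both. The set is a list of 32 genes chosen by pathway, with earlier results of these data known. Of these, 30 were matched to a named probe set among the 25579 genes of the arrays, and the other two, FDFT1 and HSD17B7, were not matched to a named probe set and are not analysed here. Total RNA taken 24 h after transient transfection was hybridised to 19 Affymetrix arrays in 7 groups. The combined groups were siTAZ3_siYAP2 (2 arrays) and siTAZ2_siYAP1 (3 arrays), each a pair of siRNAs at 40 nM in total. The single groups were siTAZ3 (2 arrays), siTAZ2 (3 arrays), siYAP2 (3 arrays) and siYAP1 (3 arrays), each 1 siRNA at 20 nM. The control group received a scrambled siRNA (3 arrays), whose dose the labels give as 40 nM in one place and 20 nM in another. Each YAP siRNA occurred with only 1 TAZ siRNA in the combinations. All groups shared the cell line and the stated culture and transfection conditions, but they came in an earlier and a later deposit. No label says that replicates came from separate cultures, so the p-values rest on an array-to-array spread that may be technical.

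As background, cells make cholesterol from acetyl-CoA through mevalonate, isoprenoids and a series of sterol intermediates. SREBP2, the product of SREBF2, turns on nearly every enzyme of this route: when membranes lack sterol, the escort protein SCAP carries it to the Golgi, where proteases release its active fragment, and when sterol is plentiful the INSIG proteins hold SCAP back. Liver cells lose cholesterol by export through ABCA1 or through the ABCG5 and ABCG8 pair, and store it as esters. YAP and TAZ are transcriptional co-activators of the Hippo pathway that bind DNA through TEAD proteins.

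The siRNAs lowered their targets. YAP1 read 7.51 to 7.85 on the log2 scale of the arrays in the combined groups and at most 7.25 with a single YAP siRNA, against 9.81 to 9.87 in control. WWTR1 read 6.15 to 7.32 in the combined groups and 6.33 to 7.13 with a single TAZ siRNA, against 9.49 to 9.61 in control. The other gene was not at its control level either. YAP1 was lower with TAZ knockdown (log2 difference from control -0.32, limma adjusted p = 0.0367). The WWTR1 difference with YAP knockdown was -0.36 (limma adjusted p = 0.0671). All 9 hepatocyte markers measured lay above the background level of 4.83, which is the 95th percentile of the means of 372 olfactory receptor genes, and their averaged level was 11.80 to 12.02 on every array. None of 3 endothelial and none of 3 leukocyte markers lay above it, and 1 of 4 fibroblast markers did. The array siTAZ2 replicate 3 stood apart, with a median correlation of 0.9866 with the other arrays, against 0.9927 or more for each of the other 18. Counts of members and some of the gene results are given without it too. Control and single YAP siRNA arrays belong to an earlier deposit, so in the comparisons of TAZ or combined siRNAs with control the deposit and the siRNA cannot be told apart.

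Most of the pathway did not pass the test against control. A gene is said to have risen or fallen where limma's p, adjusted over all 25579 genes, was under 0.05. Of the 30 members, 5 rose and none fell with combined knockdown (the mean of both pairs), beside 1.29% of all genes rising and 1.29% falling. With TAZ knockdown 4 rose and none fell, beside 1.13% of all genes rising and 0.841% falling. With YAP knockdown ABCA1 rose and no member fell, beside 0.739% of all genes rising and 0.993% falling. The members were mostly well expressed genes, with 29 of 30 above the background level, and among all genes above it 5.01% passed in either direction with combined, 3.85% with TAZ and 3.42% with YAP knockdown. Without siTAZ2 replicate 3 the counts were 6 for combined, 7 for TAZ and 5 for YAP knockdown, beside 6.17%, 4.69% and 4.47% of all genes and 11.9%, 9.11% and 8.73% of genes above background, so the shares rose over all genes too. In bulk RNA, fewer cells with a transcript and less of it per cell cannot be told apart.

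The counts differed between the siRNAs to 1 gene. With siYAP2 alone 1 member rose and 3 fell, beside 1.53% of all genes rising and 2.19% falling, and with siYAP1 alone 1 rose and none fell, beside 0.395% and 0.485%. For TAZ, 2 members rose with siTAZ3, beside 0.512% of all genes rising and 0.645% falling, and 4 rose with siTAZ2, beside 1.33% and 1.04%. For the pairs, 3 members rose with siTAZ3_siYAP2, beside 1.09% of all genes rising and 1.57% falling, and 5 rose with siTAZ2_siYAP1, beside 1.12% and 1.32%. No member fell with a TAZ siRNA or a pair in the fit with all arrays. Among genes above background, 5.15% passed in either direction with siTAZ3_siYAP2, 4.73% with siTAZ2_siYAP1, 2.29% with siTAZ3, 4.61% with siTAZ2, 7.34% with siYAP2 and 1.72% with siYAP1.

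Without siTAZ2 replicate 3 more members passed with most siRNAs, and so did more of all genes. The count was 3 with siTAZ3_siYAP2, beside 10.9% of genes above background, and 13 with siTAZ2_siYAP1, beside 11.8%. It was 5 with siTAZ3, beside 6.94%, and 6 with siTAZ2, beside 9.85%. With siYAP2 it was 9, beside 13.9%, and with siYAP1 it was 5, beside 4.77%. The shares of all genes in that fit were 5.70%, 6.05%, 3.55%, 5.10%, 7.08% and 2.47% in the same order. With all arrays, the median member difference from control was 0.04 on the log2 scale with siTAZ3_siYAP2, where 19 of 30 members (63.3%) were positive, beside 52.5% of all genes. With siTAZ2_siYAP1 the median member difference was 0.24, and 27 of 30 members (90%) were positive, beside 52.3% of all genes. The median of all genes was 0.01 in both.

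**Figure D1:**
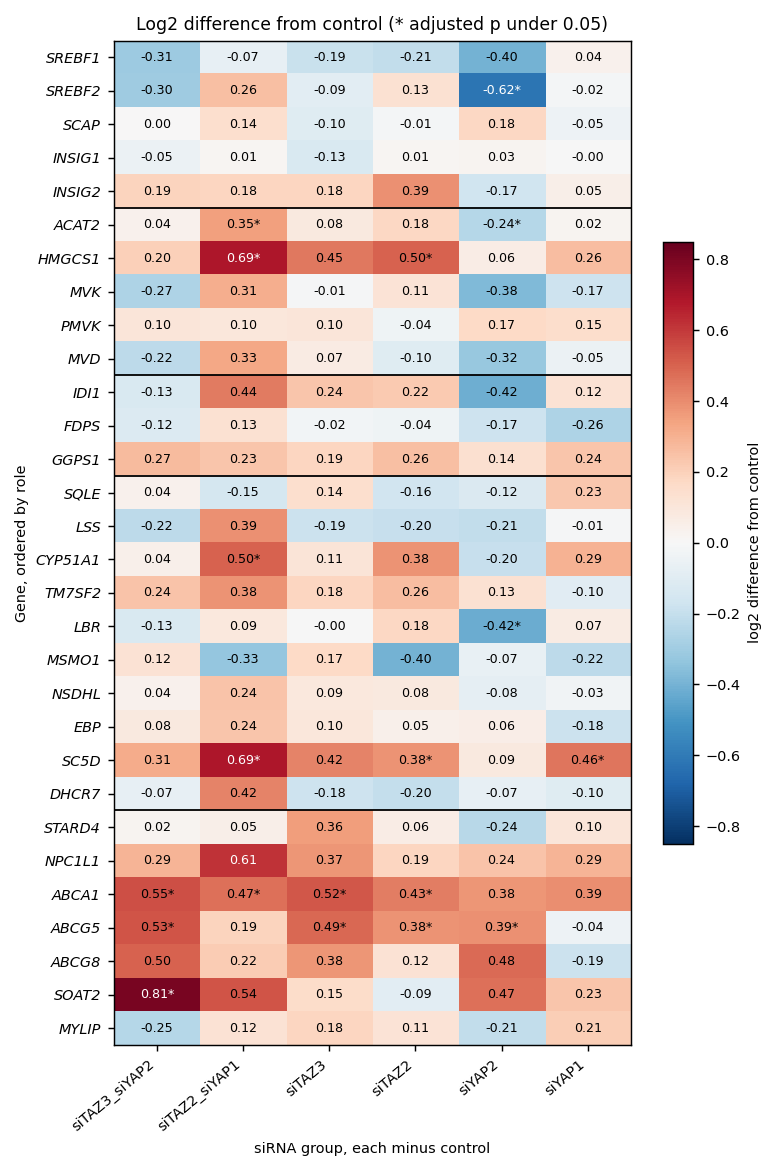
Log2 difference from control (colour and printed value) for the 30 measured members (rows, grouped by role with black lines between regulation, mevalonate, isoprenoid, sterol and transport genes) in each siRNA group (columns). An asterisk marks an adjusted p under 0.05 by limma. ABCA1 is positive in every column, and SREBF2 is lowest in siYAP2, at -0.62.

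Of the regulators, SREBF2 itself gave the clearest fall. Its level was 6.98, 7.31 and 7.16 on the siYAP2 arrays, against 7.66, 7.82 and 7.79 with siYAP1 and 7.64, 7.77 and 7.90 in control. Every siYAP2 array lay below every siYAP1 and control array, and the siYAP1 and control arrays overlapped. SREBF2 fell by 0.62 on the log2 scale with siYAP2 relative to control (SE 0.091, limma adjusted p = 0.000576, a level 0.651 times that of control). With siYAP1 the difference was -0.02 (95% interval -0.21 to 0.18, adjusted p = 0.986). Since both siRNAs lowered YAP1 to the same range, the difference between them was tested directly: SREBF2 was 0.659 times as high with siYAP2 as with siYAP1 (log2 difference -0.60, SE 0.091, adjusted p = 0.000635).

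In the combinations SREBF2 was lower in the pair that holds siYAP2. SREBF2 read 7.52 and 7.42 on the siTAZ3_siYAP2 arrays, against 7.95, 7.99 and 8.14 with siTAZ2_siYAP1, with no overlap. The log2 difference was -0.56 (SE 0.10, adjusted p = 0.00535), and it ceased to pass without siTAZ3_siYAP2 replicate 2 (adjusted p = 0.0872). The single TAZ siRNAs gave 7.70 and 7.66 with siTAZ3 and 7.96, 7.97 and 7.78 with siTAZ2, and both groups overlapped with control. They did not overlap each other: siTAZ3 was below siTAZ2, the same order as in the pairs. With all arrays that difference did not pass. The pair comparison changes the TAZ siRNA as well as the YAP siRNA. The depth of knockdown differed too. WWTR1 was lower with siTAZ3_siYAP2 than with siTAZ2_siYAP1 (log2 difference -0.91, limma adjusted p = 0.000378). YAP1 was 0.21 higher there, which did not pass (limma adjusted p = 0.423). Subtracting each TAZ siRNA alone left a log2 difference of -0.34 (95% interval -0.64 to -0.03, adjusted p = 0.835), which did not pass. That subtraction was added after the values were seen.

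The promoter of SREBF2 and the microRNA in one of its introns are printed here because the gene is known to feed back on itself and to carry miR-33a, whose relative miR-33b lies in SREBF1. Capitals mark the searched motifs in the promoter, which is the 250 bases before the RefSeq start site (GRCh38.p14, chr22:41832855-41833104, plus strand).
SREBF2 promoter: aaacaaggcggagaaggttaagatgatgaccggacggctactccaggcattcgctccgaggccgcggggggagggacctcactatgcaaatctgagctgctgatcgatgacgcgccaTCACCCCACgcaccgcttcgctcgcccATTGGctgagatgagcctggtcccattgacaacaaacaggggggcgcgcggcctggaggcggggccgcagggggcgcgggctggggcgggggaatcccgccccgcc
The first capital run is a sterol regulatory element, TCACNCCAC, starting at position -133 relative to the start site, and the second is a CCAAT box read on the other strand as ATTGG, at position -106. CCAAT boxes bind NF-Y, a known partner of SREBPs. Motifs were searched on both strands, and a match is a description of the letters only. In the mature microRNAs (miR-33a at chr22:41900949-41900969, plus strand, and miR-33b at chr17:17813897-17813916, minus strand, both RefSeq GRCh38.p14) capitals mark the seed, bases 2 to 8.
hsa-miR-33a-5p: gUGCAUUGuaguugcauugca
hsa-miR-33b-5p: gUGCAUUGcuguugcauugc
Both share the seed UGCAUUG and are known to repress ABCA1, the exporter described further on. The MIR33A probe set read 3.37 to 3.50 over all arrays, below the background level, so nothing can be said of this RNA. The MIR33B probe set read 4.19 to 5.26, across the background level, and it passed in no comparison (lowest adjusted p 0.273).

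SREBF1, which encodes the SREBP that mainly drives fatty acid synthesis, moved less. It read 6.46, 6.68 and 6.62 with siYAP2, against 6.87, 7.08 and 7.12 with siYAP1, without overlap, a log2 difference of -0.44 (SE 0.11, adjusted p = 0.0361). Leaving out single arrays raised that adjusted p to as much as 0.164. Against control the siYAP2 difference was -0.40 (adjusted p = 0.0729). SCAP passed in no comparison, with log2 differences of -0.14 to 0.22. INSIG2, the second INSIG gene, passed in none either, with differences of -0.22 to 0.39. INSIG1, a known SREBP target, read 3.60 to 4.03 over all 19 arrays and was not shown to be above background, so the arrays gave no reading of it.

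Among the enzymes, 5 fell with siYAP2 relative to siYAP1. They stand at separate steps of the route: ACAT2 (acetoacetyl-CoA thiolase, at its entry), IDI1 (which isomerises the isoprenoid building block), CYP51A1 (the lanosterol demethylase), LBR (a sterol reductase that is also the lamin B receptor) and SC5D (a desaturase near the end). With SREBF2 and SREBF1 these are the 7 members that fell in this comparison, and ABCG5 and ABCG8 rose, so that 9 of 30 passed, beside 2.92% of all genes falling and 1.92% rising. Among genes with a mean above the background level, 9.34% passed in either direction. Without siTAZ2 replicate 3 the same comparison gave 13 members, beside 8.49% of all genes and 16.3% of genes above background. Some of these calls were lost when single arrays were left out: SREBF1 in 9 of 19 such fits, ACAT2 and SC5D in 4, IDI1 and CYP51A1 in 3 and ABCG5 in 1. Relative to control, only LBR and ACAT2 of these enzymes fell with siYAP2, and SC5D rose with siYAP1. The enzymes and SREBF1 were picked for description after their values were seen.

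LBR read 9.50, 9.57 and 9.56 with siYAP2, against 10.07, 9.97 and 10.06 with siYAP1 and 9.96, 9.99 and 9.95 in control. The siYAP2 arrays lay below all arrays of every other group. LBR fell by 0.49 on the log2 scale relative to siYAP1 (SE 0.072, adjusted p = 0.000509) and by 0.42 relative to control (SE 0.072, adjusted p = 0.00224). IDI1 read 7.71, 7.27 and 7.66 with siYAP2, against 7.93, 8.25 and 8.07 with siYAP1 and 7.79, 8.07 and 8.02 in control. All siYAP2 arrays were below all control arrays, but the difference from control, -0.42, did not pass (adjusted p = 0.0862), while that from siYAP1, -0.54, did (SE 0.12, adjusted p = 0.0161).

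CYP51A1 read 9.39, 9.67 and 9.48 with siYAP2, against 9.99, 9.83 and 10.19 with siYAP1, a log2 difference of -0.49 (SE 0.10, adjusted p = 0.0109). Control lay between, at 9.61, 9.79 and 9.73, and overlapped with siYAP2. ACAT2 read 9.93, 10.11 and 10.00 with siYAP2, against 10.23, 10.30 and 10.31 with siYAP1 and 10.19, 10.34 and 10.25 in control. ACAT2 fell by 0.27 relative to siYAP1 (SE 0.064, adjusted p = 0.0220) and by 0.24 relative to control (SE 0.064, adjusted p = 0.0473), and the last of these calls was lost when any of 15 single arrays was left out.

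**Figure D2:**
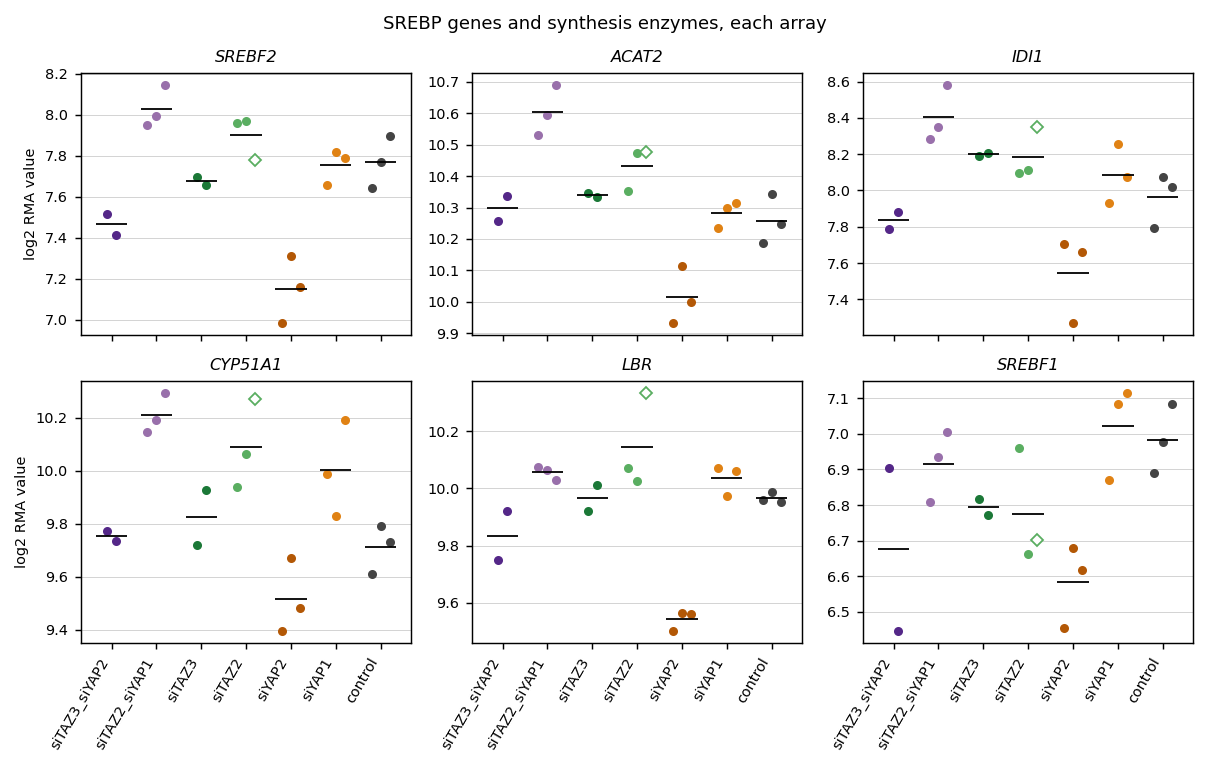
Log2 value (y axis) of SREBF2, ACAT2, IDI1, CYP51A1, LBR and SREBF1 on each array (points) in each group (x axis), with the group mean as a bar and the array siTAZ2 replicate 3 as an open diamond. The 3 siYAP2 arrays of SREBF2, at 6.98 to 7.31, lie below all other arrays of this gene.

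In the combinations, siTAZ3_siYAP2 against siTAZ2_siYAP1, 3 members fell and none rose, beside 1.51% of all genes falling and 0.977% rising, and 4.87% of genes above background passing in either direction. Besides SREBF2 these were IDI1 (log2 difference -0.57, SE 0.14, adjusted p = 0.0389) and ACAT2 (-0.31, SE 0.072, adjusted p = 0.0324). IDI1 read 7.79 and 7.88 with siTAZ3_siYAP2, against 8.29, 8.35 and 8.58 with siTAZ2_siYAP1. ACAT2 read 10.26 and 10.34 with siTAZ3_siYAP2, against 10.53, 10.59 and 10.69 with siTAZ2_siYAP1. Neither gene overlapped between the pairs. The IDI1 call was lost in 9 of 19 leave-one-out fits (adjusted p up to 0.241) and under 3 other alternatives, and the ACAT2 call in 4 (up to 0.246) and under 2. Without siTAZ2 replicate 3, an array of neither pair that enters through the pooled spread, 10 members passed, beside 5.88% of all genes and 11.5% of genes above background, among them HMGCS1 (-0.49), LSS (-0.60) and DHCR7 (-0.49), which fell.

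The single and the combined comparisons of siYAP2 with siYAP1 share no array. All 9 members that passed with the single siRNAs had the same sign in the pairs, and again after subtracting the TAZ siRNA alone. After that subtraction the differences of LBR (-0.04) and ABCG8 (0.03) were very small. The same share among all genes that passed with the single siRNAs was not computed, so the count is not a result about the members. Over all 30 members the signs were the same for 20 (66.7%), beside 54.1% of all genes. After the subtraction no member passed, beside 0.246% of all genes, and 6 members had an unadjusted p under 0.05. The share of all genes at that unadjusted p was not computed. Without siTAZ2 replicate 3, SQLE alone passed after the subtraction (log2 difference -0.48, adjusted p = 0.00945), beside 0.657% of all genes.

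**Figure D3:**
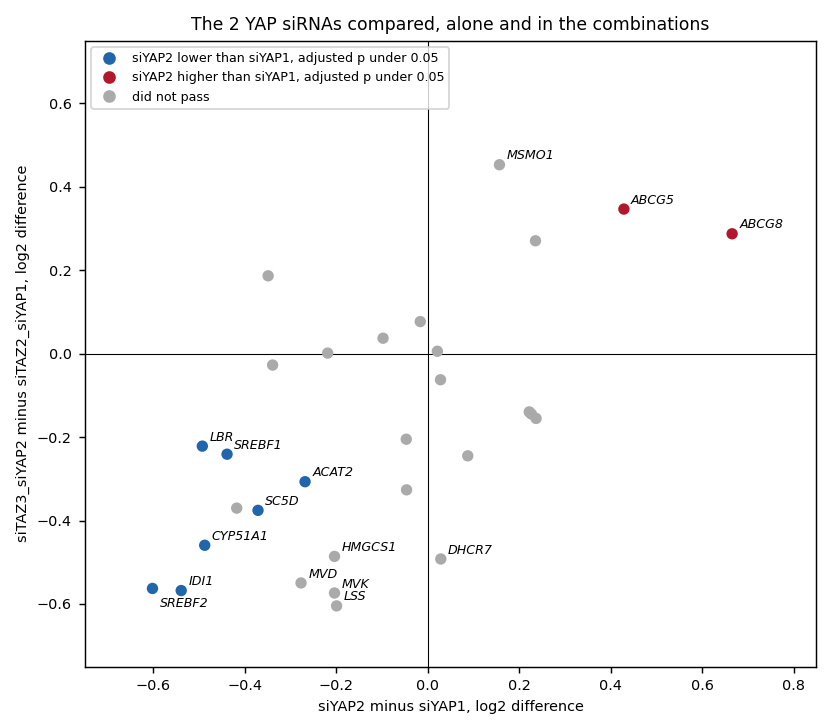
Each point is 1 of the 30 members. The x axis is the log2 difference of siYAP2 minus siYAP1 and the y axis that of siTAZ3_siYAP2 minus siTAZ2_siYAP1, and colour marks members that passed with the single siRNAs. The 7 blue genes lie at the lower left, with both values negative, and the 2 red genes, ABCG5 and ABCG8, at the upper right.

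Relative to control, the enzymes that changed with TAZ or combined siRNAs rose in the fit with all arrays. MSMO1 and SQLE, which fell without siTAZ2 replicate 3, are given further on. HMGCS1, which makes HMG-CoA, read 9.80 and 9.90 with siTAZ3_siYAP2 and 10.28, 10.36 and 10.37 with siTAZ2_siYAP1. It read 10.10 and 10.09 with siTAZ3 and 9.92, 10.04 and 10.48 with siTAZ2, against 9.46, 9.67 and 9.80 in control. Of these groups siTAZ3_siYAP2 just overlapped with control and the other 3 did not. HMGCS1 rose by 0.45 with combined knockdown (SE 0.11, adjusted p = 0.0366) and by 0.48 with TAZ knockdown (SE 0.11, adjusted p = 0.0320). The first of these calls was lost when any of 10 single arrays was left out (adjusted p up to 0.225) and the other when any of 4 was (up to 0.213). These comparisons share the control arrays. The rise with siTAZ2_siYAP1, 0.69 (SE 0.12, adjusted p = 0.00469), passed whichever single array was left out, whereas the difference with siTAZ3_siYAP2 was 0.20 (95% interval -0.08 to 0.49, adjusted p = 0.701). The difference between the pairs, -0.49, did not pass (adjusted p = 0.079).

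SC5D was the enzyme with the most calls. It read 9.58 and 9.64 with siTAZ3_siYAP2, 9.94, 9.95 and 10.06 with siTAZ2_siYAP1, 9.64 and 9.79 with siTAZ3 and 9.59, 9.76 and 9.69 with siTAZ2. It read 9.32, 9.34 and 9.49 with siYAP2 and 9.83, 9.55 and 9.88 with siYAP1, against 9.11, 9.37 and 9.41 in control. Only the siYAP2 arrays overlapped with control. SC5D rose by 0.50 with combined knockdown (SE 0.086, adjusted p = 0.00367), by 0.40 with TAZ knockdown (SE 0.086, adjusted p = 0.0232) and by 0.46 with siYAP1 (SE 0.095, adjusted p = 0.0309). With siYAP2 the difference from control was 0.09 (95% interval -0.12 to 0.29), and the direct difference of siYAP2 from siYAP1 was -0.37 (SE 0.095, adjusted p = 0.0333). Its rise with combined knockdown passed whichever single array was left out, and in a fit of the compared groups alone no member passed for TAZ knockdown.

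The promoters of IDI1 and SC5D are shown because IDI1 was lower in both comparisons of the YAP siRNAs, the pair call being the less stable, and SC5D passed in more comparisons than any other enzyme. Each window shown is the 250 bases before a RefSeq start site (GRCh38.p14). It was the window with the most motif matches, of 3 for IDI1 and 2 for SC5D. Finding CCAAT boxes in it was thus partly fixed by that choice. Neither window holds an exact match to the sterol element TCACNCCAC. The IDI1 window is chr10:1048887-1049136 on the minus strand, and that of SC5D is chr11:121292521-121292770 on the plus strand. Capitals mark CCAAT or its reverse, ATTGG.
IDI1 promoter: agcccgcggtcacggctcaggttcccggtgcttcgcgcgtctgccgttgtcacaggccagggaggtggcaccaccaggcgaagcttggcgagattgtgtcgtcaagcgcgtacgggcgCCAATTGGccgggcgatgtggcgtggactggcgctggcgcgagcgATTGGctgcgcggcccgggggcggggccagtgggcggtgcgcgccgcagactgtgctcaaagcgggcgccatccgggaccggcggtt
SC5D promoter: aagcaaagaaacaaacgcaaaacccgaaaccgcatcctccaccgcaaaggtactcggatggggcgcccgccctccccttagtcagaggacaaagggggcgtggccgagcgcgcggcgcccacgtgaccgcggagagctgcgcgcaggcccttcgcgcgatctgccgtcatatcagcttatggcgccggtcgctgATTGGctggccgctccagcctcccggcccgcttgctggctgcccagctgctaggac
In IDI1 the boxes start at positions -132, -129 and -87, where the first pair overlap on opposite strands, and in SC5D the box starts at position -56. RefSeq windows were found for 27 of the 30 members, and not for ACAT2, SQLE and SOAT2. A CCAAT box occurred in 20 of the 35 member windows (57.1%), beside 32.01% of 35116 windows of all genes. The sterol element occurred in 1 member window, that of SREBF2, beside 0.88% of all windows. The TEAD motif CATTCC occurred in 5 member windows (14.3%), those of PMVK, EBP, STARD4, ABCG5 and ABCG8, beside 11.89%.

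With all arrays in the fit, the other 12 enzymes passed in no comparison. Their differences were within -0.26 to 0.25 for FDPS (farnesyl diphosphate synthase), -0.57 to 0.31 for MVK and -0.73 to 0.43 for MVD (mevalonate kinase and decarboxylase). PMVK, GGPS1, NSDHL and EBP differed by -0.22 to 0.27 over all comparisons. The ranges were wider for LSS (lanosterol synthase, -0.62 to 0.58), DHCR7 (the last reductase, -0.51 to 0.62) and MSMO1 (a sterol oxidase, -0.40 to 0.57). TM7SF2, a reductase, ranged over -0.14 to 0.38 and SQLE, squalene epoxidase, over -0.35 to 0.31. Several of these genes had their extreme value on 1 siTAZ2 array.

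On siTAZ2 replicate 3, 13 of the 30 members lay more than 0.5 log2 units from the mean of siTAZ2 replicates 1 and 2, with 5 higher and 8 lower, whereas replicates 1 and 2 differed by more than 0.5 for none. The same gap on replicate 3 was seen for 15.3% of all genes and for 29.0% of genes above background, beside 43.3% of the members, and replicates 1 and 2 differed that much for 1.30% of all genes. MSMO1 read 10.85, 10.89 and 11.64 with siTAZ2, against 11.48, 11.56 and 11.55 in control, and SQLE read 9.93, 10.02 and 11.05 with siTAZ2, against 10.47, 10.48 and 10.53 in control. Replicates 1 and 2 were thus below control for both genes, and replicate 3 was above. Without replicate 3, MSMO1 fell by 0.65 with siTAZ2 (SE 0.062, adjusted p = 1.07e-05) and SQLE by 0.52 (SE 0.054, adjusted p = 2.83e-05), and neither passed with siTAZ3 (0.17 and 0.14). The direct difference of siTAZ3 from siTAZ2 was then 0.82 for MSMO1 (adjusted p = 2.93e-06) and 0.66 for SQLE (adjusted p = 6.33e-06). With all arrays 0 members passed between the TAZ siRNAs by limma, beside 0.813% of all genes, with 4 at an unadjusted p under 0.05, and 3 by limma with array weights. The shares of all genes beside the unadjusted count and the count with array weights were not computed.

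**Figure D4:**
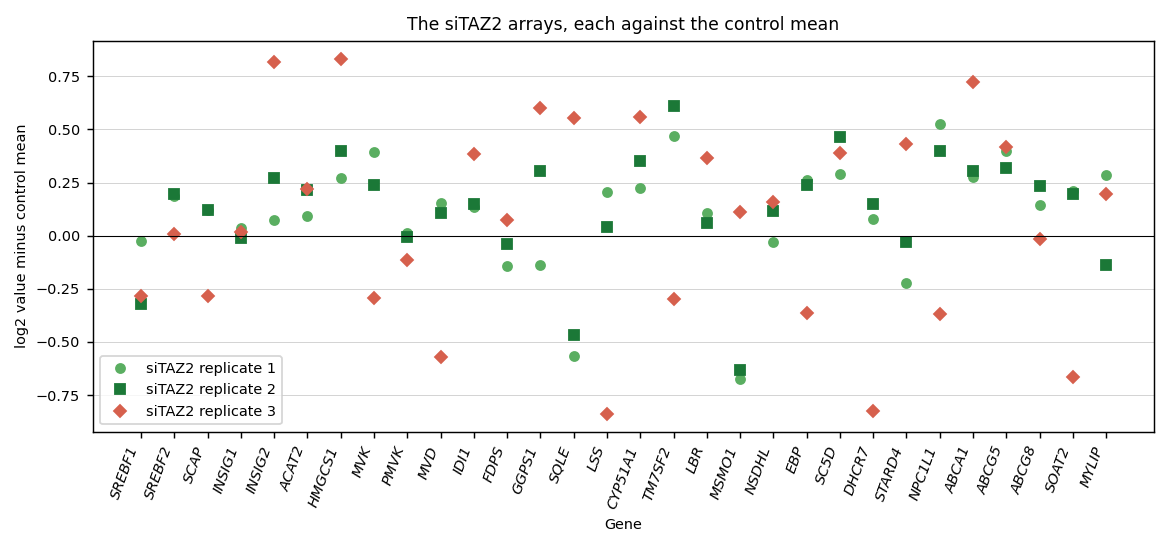
Log2 value of each siTAZ2 array minus the control mean (y axis) for the 30 members (x axis, ordered by role). Replicates 1 and 2 lie close together, while replicate 3 lies more than 0.5 from their mean for 13 members, among them SQLE, MSMO1 and SOAT2.

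MSMO1 was also low in the combination that holds siTAZ2. It read 11.68 and 11.62 with siTAZ3_siYAP2 and 11.11, 11.20 and 11.28 with siTAZ2_siYAP1, against 11.48, 11.56 and 11.55 in control. Without siTAZ2 replicate 3 it fell by 0.33 with siTAZ2_siYAP1 (SE 0.055, adjusted p = 0.00147). In that fit 13 members passed with siTAZ2_siYAP1, beside 6.05% of all genes: MSMO1 fell and the other 12 rose, among them DHCR7 (0.42), LSS (0.39), IDI1 (0.44), NPC1L1 (0.61) and EBP (0.24). With all arrays 5 passed there, namely HMGCS1, SC5D, CYP51A1 (0.50, adjusted p = 0.0174), ACAT2 (0.35, adjusted p = 0.00765) and ABCA1.

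Of the export genes, ABCA1, which loads cholesterol onto apolipoprotein A-I, was higher on every array that received a YAP or TAZ siRNA. It read 9.26 and 9.35 with siTAZ3_siYAP2, 9.13, 9.25 and 9.30 with siTAZ2_siYAP1, 9.24 and 9.33 with siTAZ3 and 9.03, 9.06 and 9.48 with siTAZ2. It read 9.24, 8.99 and 9.16 with siYAP2 and 9.16, 9.13 and 9.16 with siYAP1, against 8.77, 8.65 and 8.85 in control. All 16 siRNA arrays lay above all 3 control arrays, which held for this 1 member and for 0.641% of all genes. ABCA1 rose by 0.51 with combined knockdown (SE 0.092, adjusted p = 0.0056), by 0.48 with TAZ knockdown (SE 0.092, adjusted p = 0.0126) and by 0.39 with YAP knockdown (SE 0.089, adjusted p = 0.0372). All 3 comparisons share the control arrays. The first passed whichever single array was left out, and the last was lost when any of 11 single arrays was left out, control replicates 1, 2 and 3 among them (adjusted p up to 0.232).

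ABCG5 and ABCG8 form a single transporter that secretes sterols into bile, and both separated the YAP siRNAs. ABCG5 read 7.78, 7.65 and 7.62 with siYAP2, against 7.19, 7.29 and 7.27 with siYAP1 and 7.38, 7.40 and 7.11 in control. ABCG8 read 7.64, 7.41 and 7.54 with siYAP2, against 7.03, 6.87 and 6.68 with siYAP1 and 6.89, 7.08 and 7.17 in control. For both genes all siYAP2 arrays lay above all siYAP1 and control arrays. Relative to siYAP1, ABCG5 rose by 0.43 (SE 0.092, adjusted p = 0.0103) and ABCG8 by 0.67 (SE 0.14, adjusted p = 0.0079). Relative to control, ABCG5 rose by 0.39 (adjusted p = 0.0260), and the ABCG8 difference of 0.48 did not pass (adjusted p = 0.0731).

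ABCG5 was also higher with TAZ siRNAs. It read 7.92 and 7.74 with siTAZ3_siYAP2, 7.43, 7.35 and 7.67 with siTAZ2_siYAP1, 7.74 and 7.83 with siTAZ3 and 7.70, 7.61 and 7.72 with siTAZ2. Only siTAZ2_siYAP1 overlapped with control. ABCG5 rose by 0.43 with TAZ knockdown (SE 0.083, adjusted p = 0.0121) and by 0.36 with combined knockdown (SE 0.083, adjusted p = 0.0276). With ABCA1 it was 1 of 2 members that rose with both TAZ siRNAs tested singly, and ABCA1 alone did so with both pairs. For ABCG5 the siTAZ3 call was lost in 4 of 19 leave-one-out fits and the siTAZ2 call in 13, and each was lost under 2 other alternatives. For ABCA1 the call was lost in 8 such fits with siTAZ3, in 5 with siTAZ2, in 3 with siTAZ3_siYAP2 and in 4 with siTAZ2_siYAP1. No member passed in the same direction with both YAP siRNAs.

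**Figure D5:**
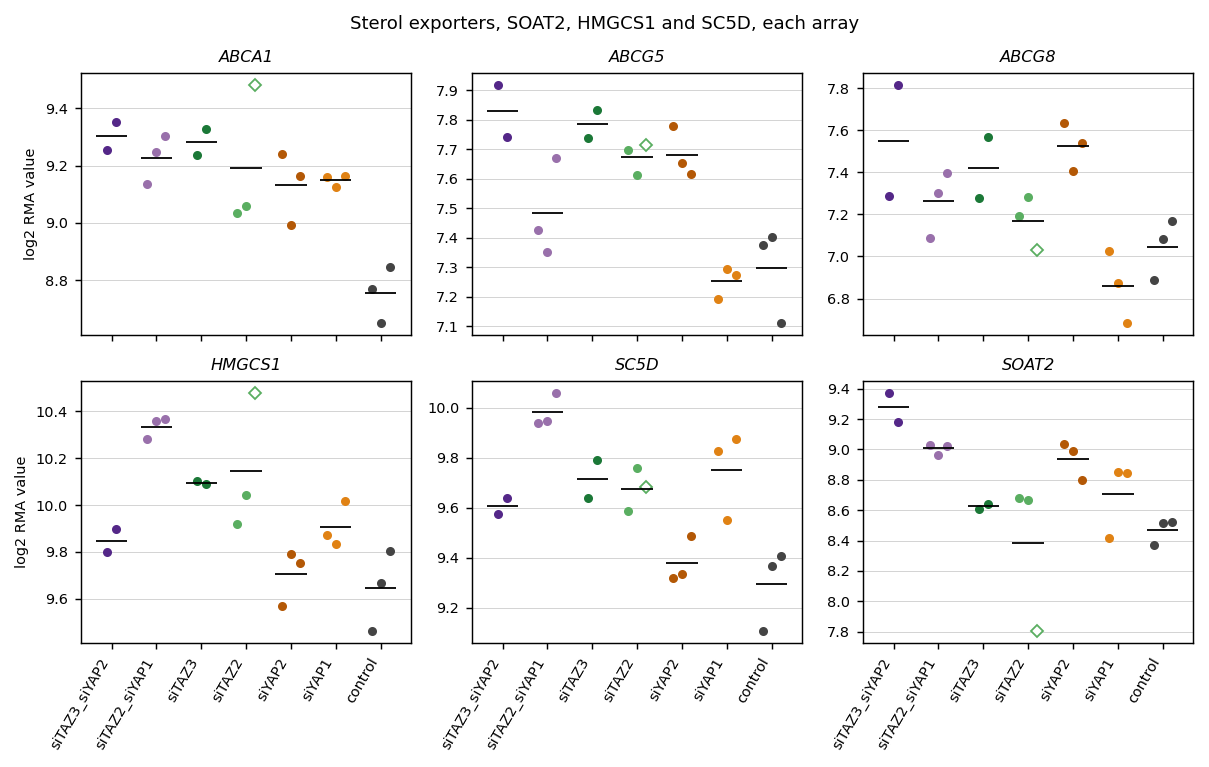
Log2 value (y axis) of ABCA1, ABCG5, ABCG8, HMGCS1, SC5D and SOAT2 on each array (points) in each group (x axis), with the group mean as a bar and siTAZ2 replicate 3 as an open diamond. The 16 siRNA arrays of ABCA1, at 8.99 to 9.48, all lie above the control arrays, at 8.65 to 8.85.

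SOAT2, which esterifies cholesterol for storage and for lipoproteins in liver and gut, was highest in the combinations. It read 9.37 and 9.18 with siTAZ3_siYAP2 and 9.03, 8.97 and 9.03 with siTAZ2_siYAP1, against 8.61 and 8.64 with siTAZ3, 8.68, 8.67 and 7.80 with siTAZ2 and 8.37, 8.52 and 8.53 in control. All 5 combined arrays lay above all 5 TAZ arrays and all 3 control arrays. SOAT2 rose by 0.67 with combined knockdown relative to control (SE 0.16, adjusted p = 0.0372), a call lost without any of 12 single arrays. Relative to TAZ knockdown the difference was 0.64 (SE 0.14, adjusted p = 0.0548), and without siTAZ2 replicate 3 it was 0.49 and passed (SE 0.085, adjusted p = 0.00702). With the single YAP siRNAs it read 9.03, 8.99 and 8.80 with siYAP2 and 8.41, 8.85 and 8.85 with siYAP1, and neither difference from control passed.

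With all arrays in the fit, the remaining transport genes passed in no comparison. NPC1L1, the uptake transporter for cholesterol, read 8.05 or more on every siRNA array except siTAZ2 replicate 3, at 7.55, against 7.89 to 7.94 in control. Its differences over all comparisons ranged over -0.51 to 0.61, with a lowest adjusted p of 0.0721. STARD4, a cytosolic sterol carrier, ranged over -0.34 to 0.36, and MYLIP, a ligase that targets lipoprotein receptors for degradation, over -0.44 to 0.21.

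Combined knockdown set against TAZ knockdown gave 0 members at an adjusted p under 0.05 by limma, beside 0.747% of all genes, with 2 at an unadjusted p under 0.05 and 1 with array weights. The interaction of YAP and TAZ siRNAs likewise gave 0 members, beside 0.125% of all genes, with 6 at an unadjusted p under 0.05. For SREBF2 the interaction was 0.27 (95% interval 0.05 to 0.50, adjusted p = 0.598) and for ABCA1 it was -0.36 (95% interval -0.61 to -0.10, adjusted p = 0.518). YAP1 itself had an interaction of 0.84 (limma adjusted p = 0.00105). Its fall with a YAP siRNA was thus smaller on top of a TAZ siRNA, and YAP1 loss was not equal in these comparisons. Pair by pair, limma gave 0 members for siTAZ3_siYAP2 against siTAZ3, beside 0.563% of all genes, with 4 at an unadjusted p under 0.05 and 1 with array weights. For siTAZ2_siYAP1 against siTAZ2 it gave 0, beside 0.219%, with 9 at an unadjusted p under 0.05 and 1 with array weights. Without siTAZ2 replicate 3 it gave 2, SQLE (0.37) and MSMO1 (0.32), which rose, beside 0.387% of all genes. Each percentage of all genes here is for the adjusted p. The shares of all genes at an unadjusted p under 0.05 or with array weights were not computed.

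A list of further pathway genes outside the members had 41 measured genes. With combined knockdown 3 of them rose and none fell (7.32%, beside 5.01% of genes above background passing in either direction). With TAZ knockdown 2 rose (4.88%, beside 3.85%), and with YAP knockdown 1 rose (2.44%, beside 3.42%). The gene common to all was LIPA, the lysosomal acid lipase that frees cholesterol from its esters. LIPA read 10.21 and 10.33 with siTAZ3_siYAP2, 10.23, 10.30 and 10.36 with siTAZ2_siYAP1 and 10.33, 10.25 and 10.35 with siYAP2, against 9.61, 9.60 and 9.55 in control. It rose by 0.70 with combined knockdown (SE 0.067, adjusted p = 2.5e-05), by 0.48 with TAZ knockdown (SE 0.067, adjusted p = 0.00157) and by 0.43 with YAP knockdown (SE 0.065, adjusted p = 0.00179). All of these calls held whichever single array was left out, although siYAP1 alone gave 0.13 (adjusted p = 0.683). The TAZ call was lost in the limma fit of the compared groups alone (adjusted p = 0.0603).

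The other two were MBTPS1, a protease that makes the first cut in SREBPs, and SEC24D, a coat protein of vesicles leaving the endoplasmic reticulum. MBTPS1 rose by 0.28 with combined knockdown (SE 0.063, adjusted p = 0.0253) and by 0.26 with TAZ knockdown (SE 0.063, adjusted p = 0.0463). The TAZ call was lost in 15 of 19 leave-one-out fits (adjusted p up to 0.254) and under 3 of 7 other alternatives, and the combined call in 6 (up to 0.172). SEC24D rose by 0.32 with combined knockdown (SE 0.073, adjusted p = 0.0270), a call also lost in 6 (up to 0.171). MBTPS2, the protease of the second cut, was chosen for description after its values were seen. It read 9.02, 8.80 and 9.03 with siYAP2, against 10.58, 10.16 and 10.38 with siYAP1 and 10.00, 10.10 and 9.86 in control. The siYAP2 arrays lay below all others. MBTPS2 fell by 1.04 on the log2 scale relative to control (SE 0.21, adjusted p = 0.00862), to a level 0.487 times that of control, and by 1.43 relative to siYAP1 (SE 0.21, adjusted p = 0.000525). In the combinations it read 9.39 and 9.21 with siTAZ3_siYAP2, against 10.31, 10.30 and 10.40 with siTAZ2_siYAP1 (log2 difference -1.04, SE 0.23, adjusted p = 0.0269), without overlap. The calls with the single siRNAs passed whichever array was left out, whereas the pair call was lost without any 1 of the 5 pair arrays (adjusted p up to 0.216). The direction was that of SREBF2 in both comparisons. A call of this kind with 1 of 2 siRNAs to the same gene was not tested against a further siRNA.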

How the data were processed

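Total RNA of 19 HepG2 samples was measured on Affymetrix arrays. Per the submitters' processing notes the authors used RMA (version and genome build not given in the sources used here), which gave the deposited log2 values. Sorted, the 19 columns are identical, so a shift of the whole transcriptome would not be seen. The table holds 25582 probe sets, of which 24244 have a gene symbol in the platform annotation and 1338 do not. Where 2 probe sets share a symbol the brighter was kept, which left 25579 genes. Groups came from sample titles. The model (limma 3.58.1 under R 4.3.3, lmFit and eBayes) had a mean for each group over all arrays, no block and no filter. P-values were adjusted by Benjamini-Hochberg within each comparison, at 0.05. A knockdown is the mean over its 2 siRNAs or pairs. SE is limma's. Arrays have no read depth, and their number limits the precision.

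Replicate numbers were not shown to pair the arrays: correlations of deviations between same-numbered arrays ran between -0.113 and 0.121 over 9 pairs of the earlier deposit and between -0.281 and 0.235 over 13 pairs of the later. Deviations within a group offset each other, which ties these correlations together, so the check cannot exclude pairing. Alternatives were an intensity trend, a filter on the dimmest 30% of genes, centring, a further quantile normalization, only the groups compared, array weights, a replicate block and leaving out each array. Members and lists were chosen with earlier results of these data known. Values in full were planned for members that passed in the comparisons of YAP, TAZ or combined knockdown or with 2 siRNA groups in the same direction (ABCA1, ABCG5, HMGCS1, SC5D and SOAT2) and for SREBF2 and INSIG1, and other members were singled out after their values were seen.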

Additional observations from a re-analysis of the deposited data

Results flagged for a closer look

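The siRNAs siYAP2 and siYAP1 target the same gene, and their effects differed by limma's test of the difference itself in 9 of 30 members. Of all genes 2.92% fell and 1.92% rose in this comparison, and 9.34% of genes above background passed in either direction. With the single siRNAs (siYAP2 minus siYAP1, log2), the falls were -0.60 for SREBF2 (adjusted p = 0.000635), -0.54 for IDI1 (0.0161), -0.49 for LBR (0.000509), -0.49 for CYP51A1 (0.0109), -0.44 for SREBF1 (0.0361), -0.37 for SC5D (0.0333) and -0.27 for ACAT2 (0.0220). The rises were 0.67 for ABCG8 (0.0079) and 0.43 for ABCG5 (0.0103). In the pairs (siTAZ3_siYAP2 minus siTAZ2_siYAP1, log2), the differences that passed were -0.57 for IDI1 (0.0389), -0.56 for SREBF2 (0.00535) and -0.31 for ACAT2 (0.0324). Of all genes 1.51% fell and 0.977% rose between the pairs, and 4.87% of genes above background passed in either direction. The calls lost most often were SREBF1 with the single siRNAs and IDI1 in the pairs, each in 9 of 19 leave-one-out fits.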

How the results depend on the processing

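Over 62 gene results (members and pathway genes that passed), no alternative turned a direction, 19 passed in every fit that left out 1 array, and 17 passed in every alternative. Centring and a further quantile normalization moved no count of members by over 1.5 times. Numbers below are members that passed, of 30, and the cause of a change was not tested. Shares of all genes were computed only for the fit with all arrays and the fit without siTAZ2 replicate 3. The counts below from other fits are therefore not results about the members. Leaving out 1 array gave 2 to 6 for combined, 0 to 7 for TAZ and 0 to 5 for YAP knockdown against control, 1 to 3 for siTAZ3_siYAP2, 2 to 13 for siTAZ2_siYAP1, 0 to 5 for siTAZ3, 0 to 6 for siTAZ2, 2 to 9 for siYAP2 and 0 to 5 for siYAP1. It gave 4 to 13 for siYAP2 against siYAP1, 0 to 10 between the pairs, 0 to 3 between the TAZ siRNAs, 0 to 1 for combined against TAZ knockdown, 0 to 1 for siTAZ3_siYAP2 against siTAZ3, 0 to 2 for siTAZ2_siYAP1 against siTAZ2, 0 to 1 for siYAP2 against siYAP1 after subtracting the TAZ siRNAs, and 0 throughout for the interaction. The highest count came without siTAZ2 replicate 3 in each of these but the interaction, and for siTAZ3_siYAP2 against control and combined against TAZ knockdown other arrays left out gave the same count.

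Array weights gave 6 for YAP knockdown, 3 for siYAP1, 10 for siYAP2, 11 for siTAZ2, 5 for siTAZ3, 14 for siTAZ2_siYAP1, 8 between the pairs, 3 between the TAZ siRNAs and 1 each for combined against TAZ knockdown and for either pair against its TAZ siRNA. Only the groups compared gave 0 for siYAP1, TAZ knockdown and siTAZ2, 8 for siYAP2 and 11 for siTAZ2_siYAP1. An intensity trend gave 2 for siYAP2, 1 for siTAZ3 and 1 for combined against TAZ knockdown, and the filter on the dimmest 30% of genes also gave 1 for the last. No share of all genes was computed beside any of these counts.

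The replicate block within each deposit, whose numbers were not shown to pair the arrays, gave 2 for YAP knockdown, where SREBF2 then passed too (log2 difference -0.32, adjusted p = 0.0434, against 0.0552 without the block), 2 for siYAP1, 1 for combined against TAZ knockdown and 1 between the TAZ siRNAs. Groups of 2 or 3 arrays limit what can be resolved. One array that stood apart enters every comparison through the pooled spread. The deposit cannot be told apart from the siRNA in the TAZ and combined comparisons with control.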

Other observations

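Array siTAZ2 replicate 3, which stood apart, read 9.22 for the SREBP protease MBTPS2, against 10.38 and 10.21 on siTAZ2 replicates 1 and 2. The siYAP2 arrays read 8.80 to 9.03 for this gene. For STARD3, a sterol carrier of late endosomes, the same array read 8.43, against 8.92 and 8.85 on replicates 1 and 2, beside 8.34 to 8.42 on the siYAP2 arrays. Other genes on that array went both ways. LBR read 10.33, against 10.07 and 10.03 on replicates 1 and 2, beside 9.50 to 9.57 with siYAP2. SOAT2 read 7.80, against 8.68 and 8.67, beside 8.80 to 9.03. These genes lay away from the siYAP2 arrays. SREBF2 read 7.78, against 7.96 and 7.97, beside 6.98 to 7.31. MVD read 7.14, against 7.86 and 7.81, beside 7.30 to 7.51. SREBF2 and MVD were thus lower than on replicates 1 and 2, as on the siYAP2 arrays. All were picked after their values were seen, and the genes going each way were not counted. Its YAP1 level, 9.42, was at that of the siTAZ3 arrays, 9.42 and 9.43, and its WWTR1 level, 6.77, was below those of replicates 1 and 2, 7.13 and 7.02. What set this array apart was not tested.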
